A study of Drosophila melanogaster with 15 samples.

Results

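The genes described here are the superoxide, peroxide and glutathione defence genes Sod1, Sod2, Sod3, Cat, Trxr1, Gclc, Gclm and Jafrac1, together with cnc and Keap1, the regulators of the oxidant response. Members were chosen by name, as every probe set annotated to 1 of these genes alone. Of the 10 genes, 8 had such a probe set, and they had 10 probe sets among the 18769 gene probe sets of the array. Sod1 and Jafrac1 (current symbol Prx2) were not listed in the annotation used and were not analysed here. A filter on low signals kept 9 of the 10 probe sets. The tests below therefore cover 9 probe sets of 8 genes, tested among 10340 kept probe sets.

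RNA came from the whole central nervous system of wandering third-instar Drosophila melanogaster larvae raised at 25 °C, 15 larvae to a sample, and was hybridised to Affymetrix arrays, 3 per group. All 5 groups carried nSyb-Gal4, which drives transgenes in neurons. The control was nSyb-Gal4 with no RNAi transgene (nsybGal4/+ in the sample labels and nSyb-Gal4/w in the series text). The other 4 groups expressed an RNAi line in neurons against 1 subunit of a respiratory complex: ND-75 of complex I (line 33910), UQCR-14 of complex III (line 109542), COX5B of complex IV (line 105769), or ATPsynCf6 of complex V, the ATP synthase (line 107826). Each target had 1 RNAi line and there was no unrelated RNAi line, so effects of a target and of its line cannot be told apart. RNA was taken from the whole tissue, in which glia, neuroblasts and other cells lack the driver. A change of signal could come from fewer cells of a type or from less RNA per cell, and these cannot be told apart.

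In Drosophila, the long protein of cnc is the counterpart of mammalian Nrf2, a leucine-zipper factor that switches on detoxifying and antioxidant genes. Keap1 binds it and holds its activity down until oxidants or electrophiles release it, and that switch acts largely on the protein, not on the transcript. Superoxide made by the respiratory chain is turned into hydrogen peroxide by the superoxide dismutases, and catalase, peroxiredoxins and glutathione-dependent enzymes remove the peroxide. Flies have no glutathione reductase, and their thioredoxin system keeps glutathione reduced in its place.

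The deposited values were array signals on a linear scale. Of the 15 arrays, 5 had a low upper quartile of signal (170 to 485, against 566 to 653 on the other 10). They were replicate 3 of the control, ND-75, UQCR-14 and COX5B groups and replicate 1 of the COX5B group. COX5B RNAi 1 stood farthest apart, with correlations of 0.823 to 0.839 with those 10 arrays, which correlated at 0.980 to 0.991 among themselves. Because this touches every result, each change was fitted in 3 ways. These were all 15 arrays at equal weight, all 15 arrays with a weight per array estimated by limma, and the 10 arrays alone. Not every change is printed for all 3 fits, and for most members other than cnc and Sod3 the values are mainly those of the 10 arrays. In the 10 arrays the COX5B group has 1 array, which is assumed to vary like the other groups. The estimated weight was lowest for COX5B RNAi 1 (0.0266) and highest for control 1 (5.21). Changes are differences of log2(signal + 16), and "rose" and "fell" are used only where limma's adjusted p over all 10340 probe sets was under 0.05. Nothing says that the samples of a group came from separate cultures, so the tests measure the spread between these samples. None of the 4 targeted genes fell in its own group in any of the 3 fits. ND-75 signals were 194 to 305 in its RNAi group and 304 to 387 in the control, a change of −0.53 in the 10 arrays (adjusted p = 0.275). For COX5B, UQCR-14 and ATPsynCF6 the changes in the 10 arrays were −0.53, −0.04 and 0.07.

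With all 15 arrays at equal weight, none of the 9 probe sets passed the test in any comparison with control, and none had an unadjusted p under 0.05. Few probe sets of the whole array passed: 0.0677% with ND-75 RNAi, 0.0484% with UQCR-14 RNAi, 0% with COX5B RNAi, 0.0193% with ATPsynCf6 RNAi and 0.0484% for the mean of the 4 RNAi groups. With array weights, cnc fell with ND-75 RNAi, with ATPsynCf6 RNAi and with UQCR-14 RNAi, and 1 probe set of Sod3 rose with ATPsynCf6 RNAi. The background was then 1.57% of probe sets called with ND-75 RNAi, 4.47% with UQCR-14 RNAi, 0.203% with COX5B RNAi, 6.91% with ATPsynCf6 RNAi and 3.99% for the mean. On the 10 arrays alone, cnc was the 1 member called, in the same 3 groups and in the mean of the 4. There the background was 1.69% with ND-75 RNAi, 4.59% with UQCR-14 RNAi, 1.24% with COX5B RNAi, 3.22% with ATPsynCf6 RNAi and 3.12% for the mean. The median change of the 9 probe sets with array weights was 0.01, −0.16, −0.23 and −0.01 in the ND-75, UQCR-14, COX5B and ATPsynCf6 groups, beside medians of −0.01, −0.02, −0.01 and 0.00 over all probe sets.

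The regulator cnc was the member called in most groups. Its tested probe set (1633379_s_at) had signals of 1766, 2116 and 866 in control replicates 1 to 3. In the ND-75 RNAi group they were 922, 1055 and 405, and in the UQCR-14 RNAi group 1120.5, 1083 and 293. The COX5B RNAi arrays had 2686, 1118 and 507, and the ATPsynCf6 RNAi arrays 1389.6, 1114 and 1072. Over all 15 arrays the groups overlap, because control 3 is lower than most RNAi arrays and COX5B RNAi 1 is the highest array of all. On the 10 arrays of higher quartile, the 8 RNAi arrays lay between 922 and 1389.6 with a median of 1098, all below the 2 control arrays. That order was shared by 6.03% of probe sets, and Cat was the other member with it.

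At equal weights the change of cnc was −0.99 (SE 0.66, adjusted p = 1.00) with ND-75 RNAi, with a 95% interval of −2.40 to 0.41. The equal-weight change was −1.04 with UQCR-14 RNAi, −0.35 with COX5B RNAi and −0.32 with ATPsynCf6 RNAi, none past the threshold. For COX5B and ATPsynCf6 RNAi these were smaller in size than in the other fits. With array weights cnc fell by 1.01 with ND-75 RNAi (SE 0.22, adjusted p = 0.0193). With UQCR-14 RNAi the change with array weights was −0.79 (SE 0.22, adjusted p = 0.0468), and with ATPsynCf6 RNAi it was −0.66 (SE 0.16, adjusted p = 0.0190). The 10 arrays gave −0.96 (SE 0.15, adjusted p = 0.00550), −0.80 (SE 0.15, adjusted p = 0.0117) and −0.70 (SE 0.14, adjusted p = 0.0151) in the same order. The COX5B group had a change of −0.95 with array weights (SE 0.35, adjusted p = 0.681) and −0.78 in the 10 arrays (SE 0.18, adjusted p = 0.0561), neither past the threshold. For the mean of the 4 RNAi groups, cnc changed by −0.68 at equal weights, by −0.85 once arrays were weighted (SE 0.17, adjusted p = 0.00537) and by −0.81 in the 10 arrays (SE 0.12, adjusted p = 0.00268). These comparisons share the control arrays, so they are not independent of each other.

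The call for cnc with array weights was lost without control 1 or control 2. The weights were estimated anew in each fit, so effects of the array left out and of the changed weights cannot be told apart. With array weights, leaving out control 1 moved the change with ND-75 RNAi to −0.56 (adjusted p = 0.839), and leaving out control 2 moved it to −0.42 (adjusted p = 0.796). The UQCR-14 change became −0.32 (adjusted p = 0.822) and −0.20 (adjusted p = 0.892), and the ATPsynCf6 change −0.21 (adjusted p = 0.928) and −0.08 (adjusted p = 0.960). The mean over the 4 groups became −0.39 (adjusted p = 0.889) and −0.26 (adjusted p = 0.884). It was also no longer called without COX5B RNAi 2 (−0.78, adjusted p = 0.372) or COX5B RNAi 3 (−0.64, adjusted p = 0.434). With array weights, the ND-75 call was also lost without ND-75 RNAi 1 (−1.48, adjusted p = 0.396) or ND-75 RNAi 2 (−1.58, adjusted p = 0.419). The UQCR-14 call was lost without UQCR-14 RNAi 1 (−1.69, adjusted p = 0.841), UQCR-14 RNAi 2 (−1.66, adjusted p = 0.773) or ND-75 RNAi 1 (adjusted p = 0.0529), and the ATPsynCf6 call without ATPsynCf6 RNAi 2 (adjusted p = 0.0927) or ATPsynCf6 RNAi 3 (adjusted p = 0.107).

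The size of the cnc change moved less among the 10 arrays. Without control 2, which leaves 1 control array, it was −0.83 with ND-75 RNAi (adjusted p = 0.0867), −0.67 with UQCR-14 RNAi (adjusted p = 0.116), −0.57 with ATPsynCf6 RNAi (adjusted p = 0.146) and −0.68 for the mean (adjusted p = 0.0866). The ND-75 call held in 9 of 10 such fits, the mean in 8 of 9, the UQCR-14 call in 7 of 10 and the ATPsynCf6 call in 6 of 10. The UQCR-14 call was also lost without UQCR-14 RNAi 1 (adjusted p = 0.0788) or UQCR-14 RNAi 2 (adjusted p = 0.0772). The ATPsynCf6 call was also lost without control 1 (−0.83, adjusted p = 0.0601), ATPsynCf6 RNAi 2 (adjusted p = 0.0657) or ATPsynCf6 RNAi 3 (adjusted p = 0.0623). Where the same replicate numbers are set against each other, cnc was lower than the control in 10 of 12 pairs, the exceptions being COX5B RNAi 1 and ATPsynCf6 RNAi 3. Over the tested probe sets this count ran from 1 of 12 for Keap1 to 11 of 12 for Sod2, and neither of these was called. The 12 pairs use the same 3 control arrays, and the share of all probe sets with such a count is not given. The labels do not say that the numbers pair the samples.

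The second cnc probe set (1636746_at) was dim, with signals of 0.312 to 36.8, and above its array's median on 0 arrays. It was not tested and gives no reading of the change. The annotation names the gene only, so which cnc transcript the tested probe set reports was not determined.

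Keap1, the inhibitor of cnc, did not pass the test in any group. Its signals were 296, 295 and 92.3 in the control and 377, 323 and 177 with ND-75 RNAi. They were 295, 363 and 151 with UQCR-14 RNAi, 1994, 379 and 194 with COX5B RNAi, and 314, 337 and 304 with ATPsynCf6 RNAi. The 4 lowest values are the 4 low-quartile arrays of replicate 3, and 1994 on COX5B RNAi 1 is far above every other array. All 3 ATPsynCf6 arrays lay above all 3 controls, an order shared by 8.95% of probe sets. Keap1 changes in the 10 arrays were 0.23 with ND-75 RNAi (95% interval −0.14 to 0.59), 0.14 with UQCR-14 RNAi (−0.22 to 0.50), 0.34 with COX5B RNAi (−0.10 to 0.79) and 0.10 with ATPsynCf6 RNAi (−0.23 to 0.43).

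**Figure D1:**
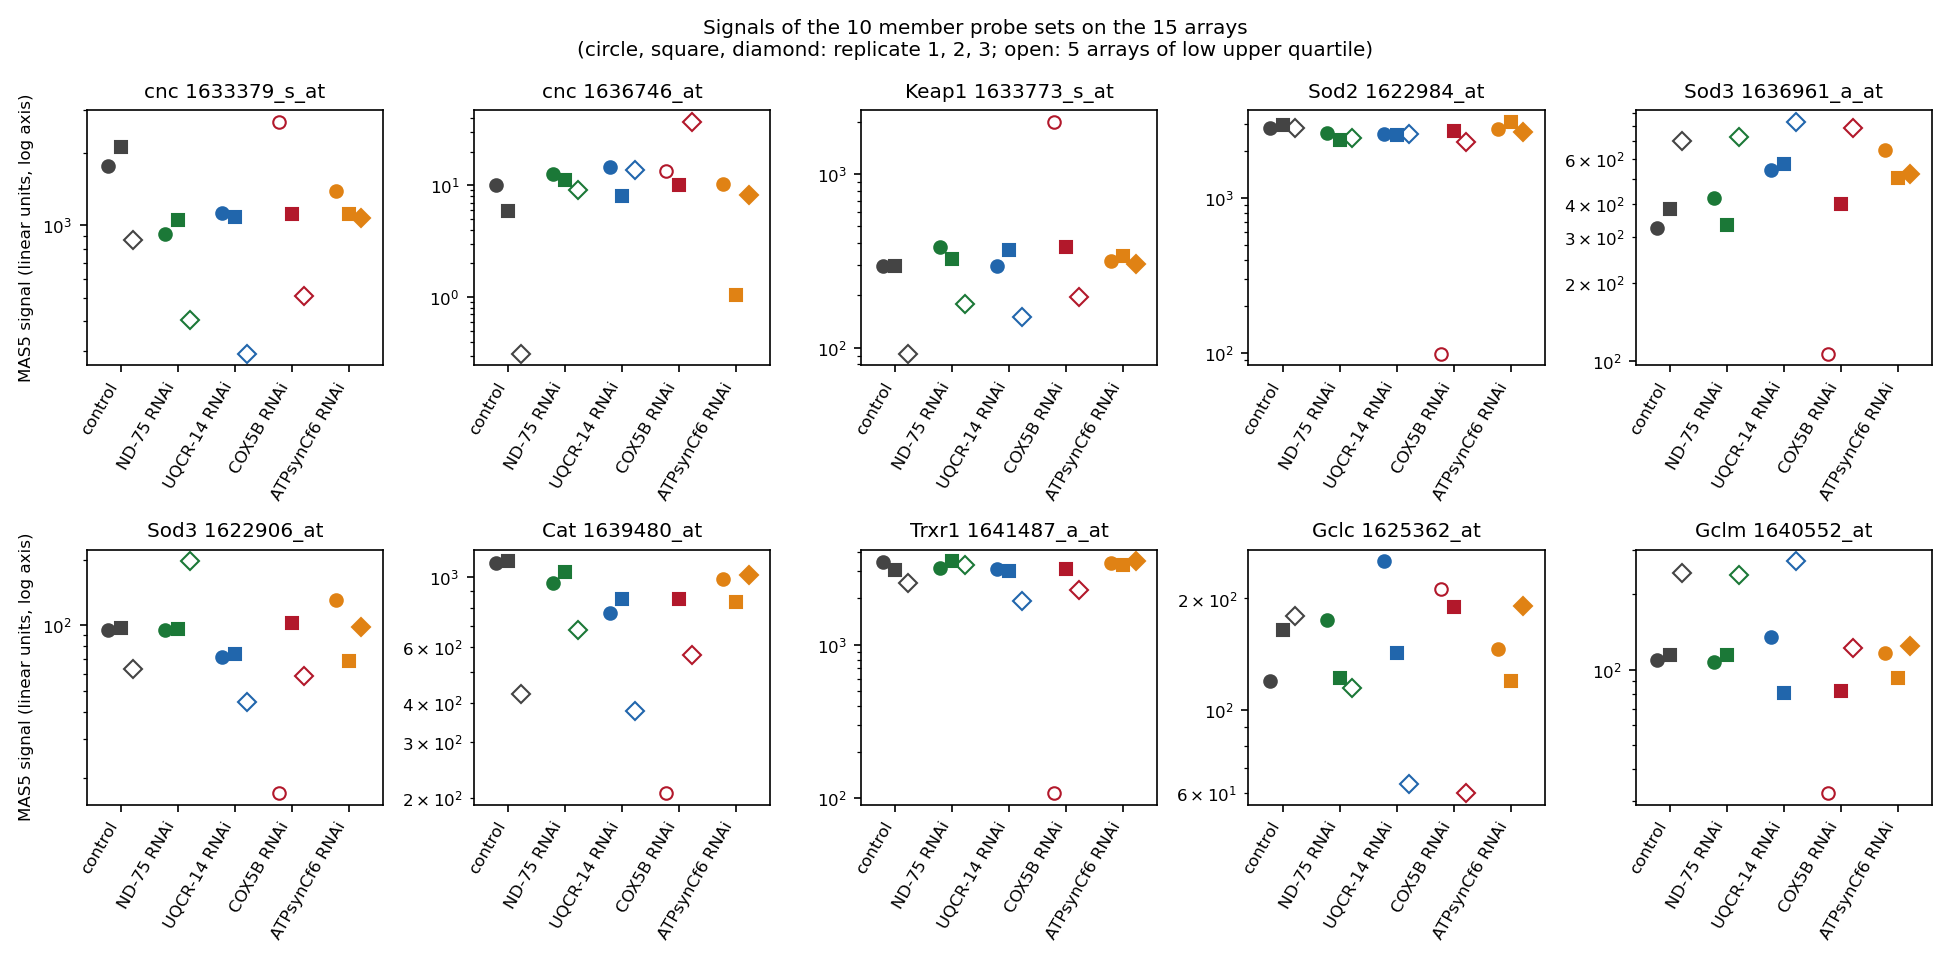
Deposited signal (log axis) of the 10 member probe sets, 1 panel each, by group, where circles, squares and diamonds are replicates 1, 2 and 3 and open symbols mark the 5 arrays of low upper quartile. Among filled symbols the cnc probe set 1633379_s_at is at 1766 and 2116 in the control and at 922 to 1389.6 in the 4 RNAi groups, while COX5B RNAi 1 is the lowest array for Sod2 at 99.1 and for Trxr1 at 108.

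Of the superoxide dismutases, Sod2 is the mitochondrial manganese enzyme. Its signals were 2816, 2940.2 and 2805 in the control and 2622, 2346 and 2427 with ND-75 RNAi. They were 2582, 2558 and 2592 with UQCR-14 RNAi, 99.1, 2689.9 and 2291 with COX5B RNAi, and 2787, 3088 and 2648 with ATPsynCf6 RNAi. Every array of the ND-75, UQCR-14 and COX5B groups was below every control, by little except on COX5B RNAi 1. That order was shared by 4.13%, 3.80% and 4.41% of probe sets, and no Sod2 change passed the test. Its changes in the 10 arrays were −0.21 with ND-75 RNAi (95% interval −0.48 to 0.06), −0.16 with UQCR-14 RNAi (−0.43 to 0.11), −0.10 with COX5B RNAi (−0.43 to 0.23) and −0.02 with ATPsynCf6 RNAi (−0.27 to 0.22).

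Sod3, the secreted copper-zinc enzyme, had a pair of probe sets that did not move together. The first of them (1636961_a_at) had signals of 324, 384 and 699 in the control and 647, 506 and 522 with ATPsynCf6 RNAi. It had 422, 334 and 723 with ND-75 RNAi, 542, 570.0 and 829 with UQCR-14 RNAi, and 107, 400.1 and 785 with COX5B RNAi. Replicate 3 was the highest array of the control, ND-75, UQCR-14 and COX5B groups, so the 15 arrays overlap. Controls 1 and 2 are below every ATPsynCf6 and UQCR-14 array, an order that in the 10 arrays 16.3% and 24.7% of probe sets share. With array weights this probe set rose by 0.62 with ATPsynCf6 RNAi (SE 0.15, adjusted p = 0.0152). The change was 0.31 at equal weights and 0.63 in the 10 arrays (SE 0.16, adjusted p = 0.0505), neither past the threshold. With UQCR-14 RNAi it was 0.66 with array weights (SE 0.20, adjusted p = 0.0661) and 0.63 in the 10 arrays (SE 0.17, adjusted p = 0.0592). With ND-75 RNAi the change was 0.20 with array weights and 0.09 in the 10 arrays.

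The Sod3 call with array weights was also lost without control 1 or control 2, in fits that estimated the weights anew. Without control 1 the ATPsynCf6 change with array weights was 0.08 (adjusted p = 0.965), and without control 2 it was 0.20 (adjusted p = 0.888). It was 0.52 without ATPsynCf6 RNAi 1 (adjusted p = 0.074), and the call held in the other 12 of 15 such fits. The second Sod3 probe set (1622906_at) had control signals of 95.0, 97.2 and 62.9 and ATPsynCf6 signals of 130.1, 68.8 and 97.7, which overlap. Its ATPsynCf6 change was −0.01 with array weights and −0.00 in the 10 arrays. With UQCR-14 RNAi it was −0.33 and −0.34, below 0 where the first probe set was above 0, and neither passed the test.

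**Figure D2:**
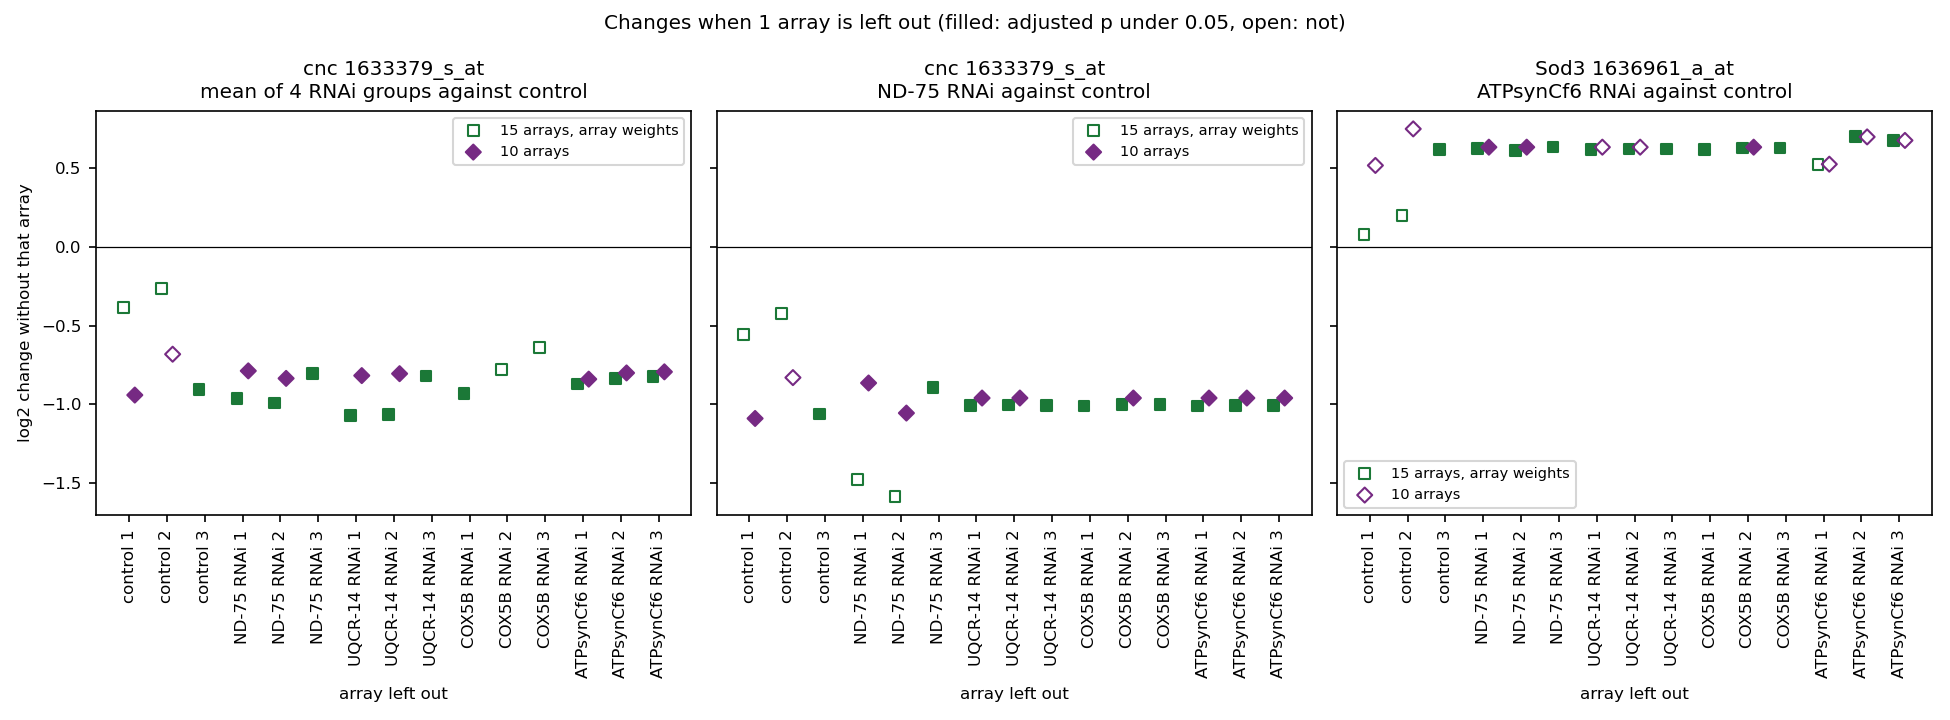
log2 change against control with each array left out in turn, for cnc (mean of the 4 RNAi groups, then ND-75 RNAi) and for Sod3 probe set 1636961_a_at with ATPsynCf6 RNAi, where filled points passed the test. Leaving out control 1 or control 2 takes the cnc mean with array weights to −0.39 and −0.26 and the Sod3 change to 0.08 and 0.20.

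Cat encodes catalase, which breaks down hydrogen peroxide in peroxisomes. Its signals were 1105, 1122 and 425 in the control, 955, 1038 and 677 with ND-75 RNAi, and 769, 852 and 376 with UQCR-14 RNAi. The COX5B arrays had 207, 850.1 and 568, and the ATPsynCf6 arrays 982, 834 and 1015. Controls 1 and 2 were above all RNAi arrays, while control 3 was lower than 10 of the 12 RNAi arrays. The Cat change in the 10 arrays was −0.45 with UQCR-14 RNAi (SE 0.13, adjusted p = 0.0723), −0.38 with COX5B RNAi (adjusted p = 0.341), −0.24 with ATPsynCf6 RNAi (adjusted p = 0.374) and −0.16 with ND-75 RNAi. The mean of the 4 was −0.33 with array weights (adjusted p = 0.230) and −0.31 in the 10 arrays (adjusted p = 0.151). At equal weights on the 15 arrays the Cat change was −0.36 with UQCR-14 RNAi and −0.77 with COX5B RNAi. There it was above 0 with ATPsynCf6 RNAi (0.21) and ND-75 RNAi (0.11), unlike in the 10 arrays. None of these changes passed the test. The UQCR-14 change in the 10 arrays passed without ND-75 RNAi 1 (adjusted p = 0.0373) or ND-75 RNAi 2 (adjusted p = 0.0377).

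Trxr1 encodes thioredoxin reductase, which passes electrons from NADPH to thioredoxin. It was the steadiest member, with the highest of the 10 arrays 1.15 times the lowest. Signals were 3464, 3039 and 2506 in the control, 3147, 3475 and 3274 with ND-75 RNAi, and 3084, 3029 and 1927 with UQCR-14 RNAi. The COX5B arrays had 108, 3087 and 2256, and the ATPsynCf6 arrays 3418, 3287 and 3488. All groups overlap, and COX5B RNAi 1 alone was far below the rest. Trxr1 changes in the 10 arrays were 0.03 with ND-75 RNAi (95% interval −0.24 to 0.30), −0.09 with UQCR-14 RNAi (−0.35 to 0.18), −0.07 with COX5B RNAi (−0.40 to 0.26) and 0.07 with ATPsynCf6 RNAi (−0.18 to 0.31).

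Gclc and Gclm encode the catalytic and the modifier subunit of glutamate-cysteine ligase, the first enzyme of glutathione synthesis. In the control, Gclc signals were 120.1, 165 and 179.8 and Gclm signals 109, 115 and 243. Over all groups Gclc ran from 59.9 to 252 and Gclm from 32.2 to 271. Gclc changes in the 10 arrays were 0.05, 0.39, 0.39 and 0.08 in the ND-75, UQCR-14, COX5B and ATPsynCf6 groups. The intervals were wide: for UQCR-14 RNAi the 95% interval ran from −0.25 to 1.04 and for COX5B RNAi from −0.40 to 1.17. Gclm changes were −0.01, −0.08, −0.38 and −0.02 in the same order, with a 95% interval of −0.56 to 0.55 for ND-75 RNAi and of −1.06 to 0.30 for COX5B RNAi. Neither subunit passed the test in any group.

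**Figure D3:**
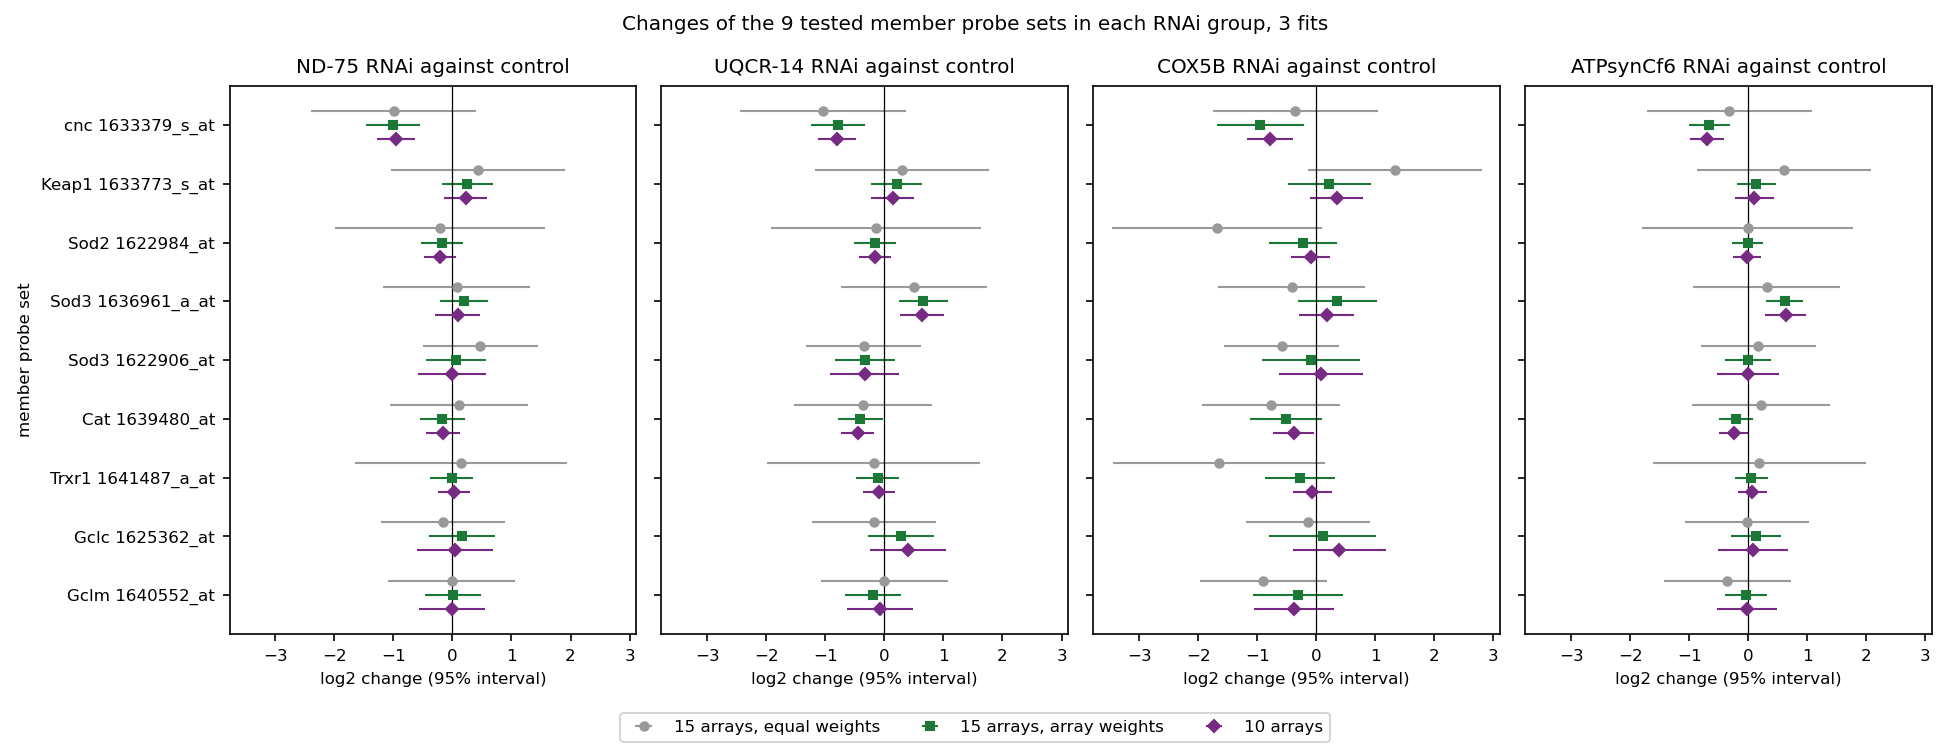
log2 change against control with its 95% interval for the 9 tested probe sets, 1 panel per RNAi group, in the fits of 15 arrays at equal weight, 15 arrays with array weights and 10 arrays. The cnc point lies below 0 in every panel, at −0.96, −0.80, −0.78 and −0.70 in the 10 arrays.

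COX5B RNAi 1 was the extreme array for 7 of the 8 genes. It had the highest signal of all 15 arrays for cnc and Keap1, and the lowest for Sod2, Sod3 (both probe sets), Cat, Trxr1 and Gclm. At equal weights the COX5B changes, beside a median of −0.32 over all probe sets, were 1.33 for Keap1, −1.68 for Sod2, −1.65 for Trxr1 and −0.90 for Gclm (adjusted p = 0.541 for each). Over the 10 arrays the same changes were 0.34, −0.10, −0.07 and −0.38. The actin 3′ to 5′ signal ratio, a measure of RNA or cDNA length, was 70.1 on COX5B RNAi 1, 37.4 on ND-75 RNAi 2 and 20.1 on ND-75 RNAi 3, and 2.94 to 5.03 on the other arrays. Its part in these values was not tested. Between the highest and lowest array, Sod2 differed 31.2 times over 15 arrays and 1.32 times over 10, and Trxr1 32.2 times over 15. For cnc the ratio was 9.16 over 15 arrays and 2.29 over 10, for Keap1 21.6 and 1.28, and for Cat 5.41 and 1.46.

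The 4 RNAi groups were also compared with each other by an F test. None of the 9 probe sets passed it, with 0.106% of all probe sets called at equal weights, 2.72% with weighting and 4.40% in the 10 arrays. The adjusted p for cnc was 0.893, 0.858 and 0.553 in these fits. Sod3 probe set 1636961_a_at had an adjusted p of 0.113 in the 10 arrays. A difference of the cnc or Sod3 response between targets was therefore not shown.

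Markers of cell types moved in some groups as well. The 7 neuronal marker genes had median changes of −0.24, −0.19, −0.31 and −0.24 with array weights in the ND-75, UQCR-14, COX5B and ATPsynCf6 groups. Their summed signal on the 10 arrays was 17257.5 to 21683 in the control, 15653 to 20115 with ND-75 RNAi, 16214 to 16838 with UQCR-14 RNAi, 13312.5 with COX5B RNAi and 16317 to 19119 with ATPsynCf6 RNAi. Of these genes nSyb, the synaptobrevin gene whose promoter drives the Gal4, fell with UQCR-14 RNAi by 0.95 in the 10 arrays (adjusted p = 0.0168) and for the mean of the 4 groups by 0.76. The neuronal microtubule gene futsch fell with COX5B RNAi (−0.93) in the 10 arrays, which hold 1 COX5B array, and was not called with array weights. Of the glue genes of the salivary gland, a tissue outside the nervous system, Sgs4, Sgs5, Sgs7 and Sgs8 rose with UQCR-14 RNAi, by 2.03 to 2.62 with array weights. The summed signal of the 8 gland genes on the 10 arrays was 892 to 1851 in the control, 972 to 3857 with ND-75 RNAi, 3540.4 to 10650.1 with UQCR-14 RNAi, 2325 with COX5B RNAi and 1019.7 to 1785 with ATPsynCf6 RNAi. The 5 fat body genes summed to 2927 to 3325 in the control, 3008 to 3831 with ND-75 RNAi, 5378 to 5534 with UQCR-14 RNAi, 4579 with COX5B RNAi and 4548 to 9762 with ATPsynCf6 RNAi, all on the 10 arrays. Control 3, outside the 10 arrays, had a gland sum of 12733.6, above every array of the 10, and a fat body sum of 7384. UQCR-14 RNAi 3 had 17720.5 and 11112. Of the fat body genes, the desaturase gene Desat1 rose with UQCR-14 RNAi and ATPsynCf6 RNAi (0.65 and 0.56 in the 10 arrays). It gave a large part of the sums, with 2345 on control 1 and 4041 on UQCR-14 RNAi 2. The 9762 was on ATPsynCf6 RNAi 1, where Lsp2 was 3812, against 721 and 366 on the other ATPsynCf6 arrays. The 7 glial genes summed to 21761 to 21859.9 in the control and to 19047 to 24134.5 over the RNAi arrays of the 10. Their median changes with array weights were −0.08, −0.16, −0.25 and 0.04 in the ND-75, UQCR-14, COX5B and ATPsynCf6 groups. On the UQCR-14 arrays of the 10, nrv2, Indy and moody lay above controls 1 and 2, and repo and alrm below. There wrapper and Gs2 overlapped the controls. Within the list the glial pump subunit gene nrv2 rose with UQCR-14 RNAi (0.58) and ATPsynCf6 RNAi (0.43) with array weights. Indy rose with UQCR-14 RNAi (0.64) in the 10 arrays. The astrocyte-like glia gene alrm fell with COX5B RNAi (−0.78) in the 10 arrays, which hold 1 COX5B array, and was not called with array weights. On that array repo, wrapper and Gs2 were also below controls 1 and 2, and nrv2, Indy and moody were above them. The 5 muscle genes summed to 237 to 632 over all 15 arrays, and of these the actin gene Act79B rose with UQCR-14 RNAi with array weights (1.10, adjusted p = 0.0415). The 6 blood cell genes summed to 748 to 1320, with srp, their master regulator, at 0.317 to 22.9. Of them the hemolectin gene Hml fell with ND-75 RNAi, with changes of −1.14 with array weights (adjusted p = 0.0322) and −1.34 in the 10 arrays (adjusted p = 0.0403), and for the mean of the 4 groups (−1.02 in the 10 arrays, adjusted p = 0.0366). The part of these differences in the cnc, Sod3 and Cat values was not tested.

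The wider oxidant defence was read from 5 gene lists: peroxiredoxins and thioredoxins (9 genes kept of 17), glutathione synthesis and use (10 of 17), NADPH supply (5 of 9), cnc partners, the Keap1 ligase and other regulators (17 of 20), and repair, metals and oxidant sources (11 of 19). At equal weights 0 of the 54 probe sets passed in any comparison. With array weights 1 rose with ND-75 RNAi and 3 rose with ATPsynCf6 RNAi, and none fell in the 4 groups. In the 10 arrays 1 rose with ND-75 RNAi, 1 with UQCR-14 RNAi, 1 with COX5B RNAi and 2 with ATPsynCf6 RNAi. With array weights these are 1.85% and 5.56% of the 54 probe sets, against 1.57% and 6.91% of all probe sets with ND-75 and ATPsynCf6 RNAi. The 10-array shares of 1.85%, 1.85%, 1.85% and 3.70% stand beside 1.69%, 4.59%, 1.24% and 3.22% of all probe sets, so the lists were called at about the background or below it. For the mean of the 4 groups with array weights, 2 of the 54 rose, which is 3.70% against 3.99% of all probe sets. The median change of the 54 with array weights was −0.01, −0.04, −0.05 and 0.07 in the ND-75, UQCR-14, COX5B and ATPsynCf6 groups, next to −0.01, −0.02, −0.01 and 0.00 over all probe sets.

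In the fits that left out 1 of the 10 arrays, the glutathione list supplied the gene with the steadiest call against control. GstO3, an omega-class glutathione transferase, had signals of 1039, 1069 and 1668 in the control and 1857, 1921 and 2535 with ND-75 RNAi. These groups do not overlap, an order shared by 3.54% of probe sets. It had 1429, 1449 and 3839.6 with UQCR-14 RNAi, 62.8, 1545 and 2744 with COX5B RNAi, and 1657, 1542 and 1518 with ATPsynCf6 RNAi. With ND-75 RNAi it rose by 0.84 with array weights (SE 0.18, adjusted p = 0.0227) and by 0.83 in the 10 arrays (SE 0.11, adjusted p = 0.00184). With ATPsynCf6 RNAi it rose by 0.55 (SE 0.14, adjusted p = 0.0204) and by 0.57 (SE 0.10, adjusted p = 0.00865). In the 10 arrays it also rose with UQCR-14 RNAi, by 0.44 (adjusted p = 0.0398), and its COX5B change was 0.54 (adjusted p = 0.0740). The ND-75 call held in 10 of 10 fits that left out 1 of the 10 arrays, while the UQCR-14 call held in 3 of 10. With array weights the ND-75 call was lost without control 1 or 2 or without ND-75 RNAi 1 or 2, where the change ran down to 0.51. The ATPsynCf6 call with array weights held in 10 of 15 fits and the change ran down to 0.23, the losses being without control 1 or 2 or any ATPsynCf6 array. Among the 10 arrays it was lost without control 1 or control 2. For the mean of the 4 groups GstO3 also rose with array weights, and that call held in 9 of 15 fits that left out an array.

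GstO1, its paralog, had control signals of 159, 148 and 299.8 and ATPsynCf6 signals of 241, 273 and 231. It rose with ATPsynCf6 RNAi with array weights (0.61, adjusted p = 0.0421), and its change in the 10 arrays was 0.64 (adjusted p = 0.221). That call held in 6 of 15 fits that left out an array, where the change ran from 0.17 to 0.65 and was lost without either of controls 1 and 2. Eip71CD, a methionine sulfoxide reductase that is induced by ecdysone, had control signals of 1055, 1307 and 3011 and ATPsynCf6 signals of 2344, 2089 and 1769.7. It rose with ATPsynCf6 RNAi by 0.79 with array weights (adjusted p = 0.0138) and by 0.80 in the 10 arrays (adjusted p = 0.0336). The call held in 12 of 15 fits that left out an array with weights and in 4 of the 10 without. For both genes control 3 is above every ATPsynCf6 array, and controls 1 and 2 are below.

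Among the regulators, Irbp18, a leucine-zipper protein, had control signals of 327, 328 and 744 and COX5B signals of 7136, 769 and 851. In the 10 arrays, with 1 COX5B array, its change was 1.19 (adjusted p = 0.0316), and with array weights it was 1.26 (adjusted p = 0.313). For the mean of the 4 RNAi groups it rose by 0.74 with array weights and by 0.75 in the 10 arrays. The 10-array COX5B call held in 5 of 9 fits that left out an array. The mean call held in 9 of 15 such fits with array weights, where the change ran down to 0.20, and in 6 of 9 of the 10 arrays. It was lost in both without control 1, control 2 or UQCR-14 RNAi 1. The F test among the 4 RNAi groups called 1 list probe set with array weights (1.85%, against 2.72% of all) and 3 in the 10 arrays (5.56%, against 4.40%). The genes, named here after their values were seen, were Men, a malic enzyme of the NADPH list (adjusted p = 0.018 and 0.012), and in the 10 arrays also Sesn, the sestrin gene (adjusted p = 0.046), and MtnA, a metallothionein gene (adjusted p = 0.017). Men signals were 3565 to 3903 with ATPsynCf6 RNAi and 284 to 2620 in the other 3 RNAi groups, with 1023 to 3115 in the control. Sesn signals on the 10 arrays were 998 to 1374 with ND-75 RNAi and 563 to 871 in the other RNAi groups. MtnA signals there were 11503.5 to 13491 with ATPsynCf6 RNAi and 5052 to 8374 in the other RNAi groups. On the replicate 3 arrays left out MtnA had 68469, 67778.5 and 36266 with ND-75, UQCR-14 and COX5B RNAi, above every ATPsynCf6 array. The Men change against control with ATPsynCf6 RNAi was 0.43 with array weights (adjusted p = 0.093), which did not pass the test.

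**Figure D4:**
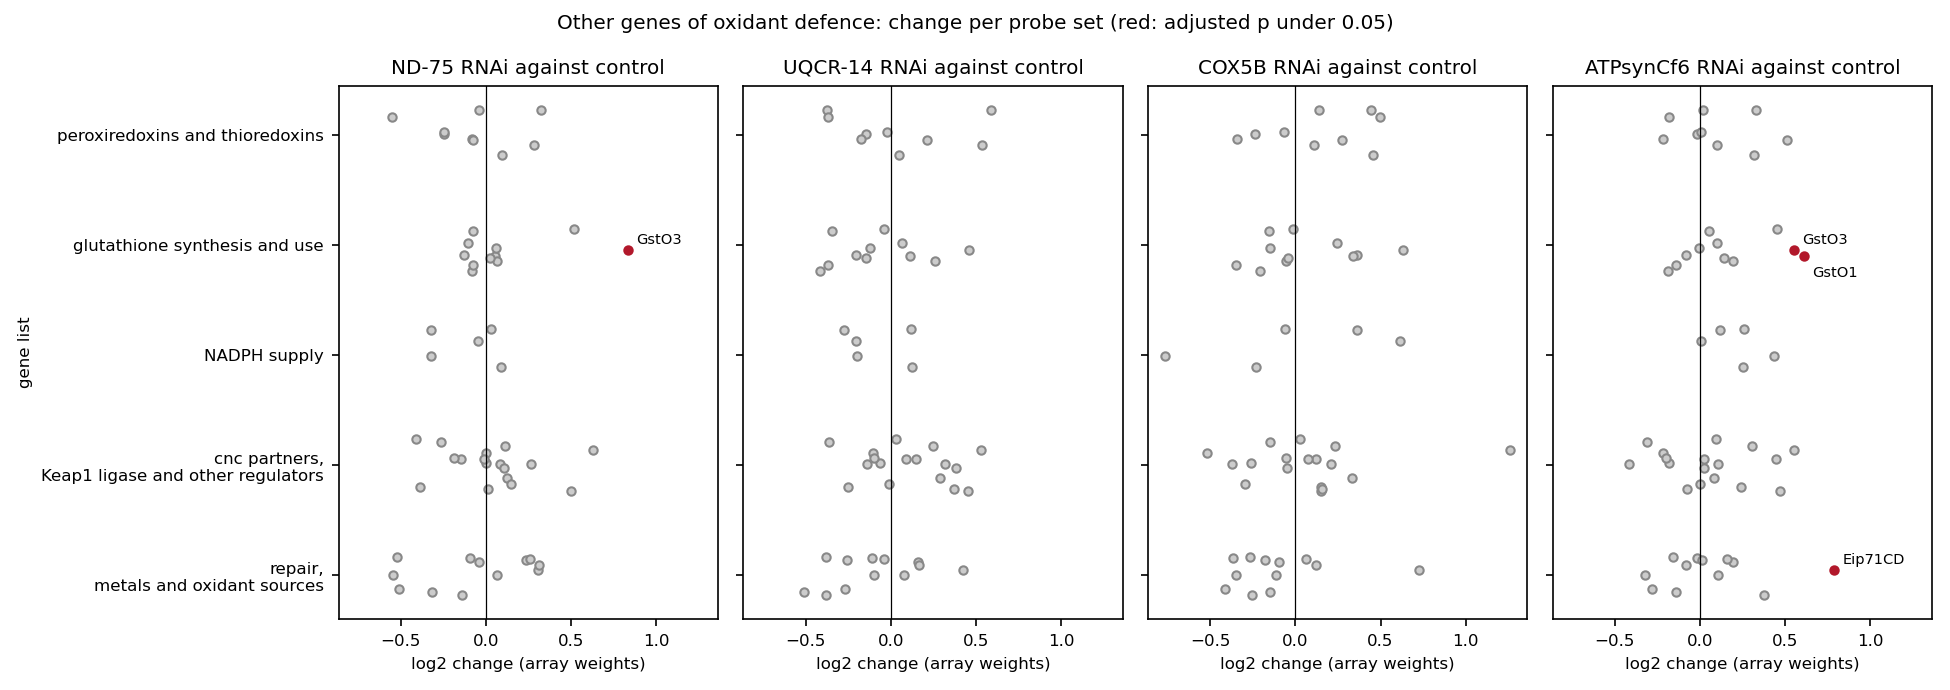
log2 change against control, from the fit with array weights, for the 54 probe sets of the 5 lists in the 4 RNAi groups, with red points for those that passed the test. The 4 red points are GstO3 with ND-75 RNAi (0.84) and GstO3, GstO1 and Eip71CD with ATPsynCf6 RNAi (0.55, 0.61 and 0.79).

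The genes whose signals followed each member most closely were found by Pearson's r of log2 signal over the 10 arrays, as a description of these libraries. For cnc they were CG7029 (r = 0.955) and Trissin (r = 0.945), which over all 15 arrays had r of 0.255 and −0.481. For Keap1 they were CG13921 (r = 0.954) and CG5973 (r = 0.921), and for Cat CG6136 (r = 0.970) and CG30203 (r = 0.932). CG30203 kept its r over the 15 arrays (0.958), while that of CG6136 was −0.504. For Sod2 they were CG11590 (r = 0.925) and CG32147 (r = 0.916), and for Sod3 probe set 1636961_a_at CG13689 (r = 0.943) and CG9109 (r = 0.926). The closest genes to Trxr1 were pths (r = 0.872) and Sema2b (r = 0.863), to Gclc CG8997 (r = 0.920) and Med (r = 0.901), and to Gclm Reepl1 (r = 0.852) and SLIRP2 (r = 0.832). Over all 15 arrays the r was below 0 for CG5973 (−0.279), Sema2b (−0.263), CG8997 (−0.558) and Med (−0.269). For the other genes named with Keap1, Sod2, Sod3, Trxr1 and Gclm it was 0.228 to 0.917. CG8997 and Reepl1 were dim on some of the 10 arrays, with signals down to 4.11 and 3.90. The points of each r share arrays and groups, and each pair had the highest r among the single-gene probe sets compared.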

How the data were processed

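Arrays of 5 groups of 3 were analysed. Per the submitters' processing notes, MAS5, Affymetrix Expression Console and Transcriptome Analysis Console were used. The authors deposited linear signal intensities per probe set, so their background correction and scaling are kept. From these, 183 array control probe sets were left out of 18952. Gene names came from the platform annotation, in which 13647 probe sets had 1 gene, 402 had several and 4720 were not listed.

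Values were log2(intensity + 16), which understates the change of dim probe sets. Probe sets above their own array's median on at least 3 of 15 arrays were kept (10340). Group means were fitted with limma 3.58.1 (R 4.3.3; lmFit, eBayes with a trend), with Benjamini-Hochberg adjustment over all kept probe sets and a threshold of 0.05. Array weights (arrayWeights) and the 10 arrays with an upper quartile of at least 500 are alternative fits. Not every change is printed for each fit. Precision is limited by 3 arrays per group. The fits were run on simulated data whose spread was scaled down from that of these arrays. That run does not measure how well the fits perform on these data. Text names the members, list genes called against control in any of the 3 fits, and the genes most correlated with each member. The members and lists were chosen with earlier results of these data known. No sequences are shown.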

Additional observations from a re-analysis of the deposited data

Results flagged for a closer look

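For Sod3 probe set 1622906_at, all 3 ND-75 RNAi arrays lay on one side of the control mean and all 3 UQCR-14 RNAi arrays on the other. Signals were 94.9, 95.7 and 197 with ND-75 RNAi, 71.9, 73.7 and 44.7 with UQCR-14 RNAi, and 95.0, 97.2 and 62.9 in the control. The difference between the RNAi groups was 0.82 (SE 0.46, limma adjusted p = 1.00), which did not pass the test. ND-75 RNAi 3, at 197, is 1 of the 5 arrays of low upper quartile. In the 10 arrays the change against control was −0.01 with ND-75 RNAi and −0.34 with UQCR-14 RNAi.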

How the results depend on the processing

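At equal weights on 15 arrays 0 members were called against control, for the mean or in the F test among the RNAi groups, and this held under quantile normalization, median centring, a pseudocount of 4 or 64, no filter, a filter on all 15 arrays, no trend, and each array left out in turn (0 to 0). Counts moved with array weights, to 1, 1 and 2 members called with ND-75, UQCR-14 and ATPsynCf6 RNAi and 1 for the mean, and in the 10 arrays to 1, 1, 1 and 1. Quantile normalization with array weights gave 1 with ND-75 RNAi, 4 with UQCR-14 RNAi (cnc, Sod3, Cat and Gclc), 2 with COX5B RNAi (cnc and Cat), 2 with ATPsynCf6 RNAi, 2 for the mean and 1 in the F test (Sod3), where 4.12%, 20.9%, 23.5%, 7.40%, 14.6% and 26.1% of all probe sets were called. Chosen after seeing the data, 10 arrays with quantile normalization gave 1, 2, 1 and 2 in the 4 groups and 1 for the mean (2.12%, 6.08%, 2.61%, 3.93% and 4.26% of all), and 10 arrays with median centring gave 1 with ND-75 RNAi, 2 with UQCR-14 RNAi (cnc and Cat), 1 with ATPsynCf6 RNAi and 1 for the mean (1.67%, 17.7%, 3.71% and 4.66% of all). Without ND-75 RNAi 2, the array of high actin ratio, the other 9 arrays gave 1, 3 (cnc, Sod3 and Cat), 1 and 2, and 1 for the mean (0.928%, 9.22%, 2.97%, 5.13% and 5.34% of all). Leaving out 1 of the 10 arrays gave 0 to 1 with ND-75 RNAi, 0 to 3 with UQCR-14 RNAi, 0 to 1 with COX5B RNAi, 0 to 2 with ATPsynCf6 RNAi, 0 to 1 for the mean and 0 to 1 in the F test. With array weights these ranges were 0 to 1, 0 to 2, 0 to 0, 0 to 2, 0 to 1 and 0 to 0. The share of all probe sets called is not given for each of these fits, so the ranges do not set the members apart from the whole array.

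The 1 called value of opposite direction was Gclc probe set 1625362_at with UQCR-14 RNAi, which was −0.17 at equal weights and 0.60 (adjusted p = 0.0422) under quantile normalization with array weights. Of 2407 member changes under other settings, 138 became called and 396 were of the other sign with no call in either fit. The share of all probe sets that became called is not given. The causes were not tested. List genes called went from 0 to 1 with ND-75 RNAi and 3 with ATPsynCf6 RNAi under array weights, and to 1, 1, 1 and 2 in the 10 arrays.

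With the replicate number as a block, 0 members were called. The cnc change was −0.99 with ND-75 RNAi (limma adjusted p = 1.00), −1.04 with UQCR-14 RNAi and −0.68 for the mean. Same-numbered arrays deviated together from their group means among the control, ND-75, UQCR-14 and COX5B groups (r from 0.167 to 0.852). They did not with the ATPsynCf6 group (r from −0.362 to 0.149). Replicate 3 was of low upper quartile in those 4 groups and not in the ATPsynCf6 group. These r therefore cannot tell a pairing by number from array quality, and the numbers were not taken as a pairing.

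Precision is limited by 3 arrays a group, 5 of the 15 arrays being of low signal, and in the 10 arrays by 2 control arrays.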
